A study of Mus musculus with 8 samples.

Results

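Tmem176a, Tmem176b and Plac8 were followed in mouse CD4 T cells with and without a NIK transgene. Their RNA was higher in transgenic than in wild-type (WT) regulatory T cells (Treg) and lower in transgenic than in WT conventional T cells (Tconv). They were taken as every probe that the platform annotation names with 1 of these symbols, and were chosen on their measured genotype differences, which pointed in opposite directions in the 2 subsets. The rule gave 4 probes of 3 genes, among 25697 probes on the array and 7926 genes tested. Because those differences chose the genes, they are described below with their standard errors and without a p-value. The difference between the subsets averaged over both genotypes is the one contrast of these genes that was tested. In this balanced design it would be independent of the genotype differences if all groups had the same spread. The WT Tconv arrays were more spread (SD 0.71, 0.79 and 0.97 for the 3 genes in turn) than the others. The estimate may therefore not be free of the choice. Its test also uses the same estimate of the spread as the genotype differences.

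Each of the 8 Illumina arrays measured cells sorted from mixed marrow chimeras of C57BL/6 background, more than 8 weeks after reconstitution. The donors were NIKtg/CD4Cre/Foxp3RFP and B6.Thy1.1/Foxp3RFP, and both went into B6.CD45.1 recipients after lethal irradiation with 1200 rads in a split dose. The NIK transgene (Map3k14) sits at the ROSA26 locus and is switched on by a Cre that the CD4 promoter drives, so it is active in T cells from the stage at which CD4 first appears in the thymus. NIK is the kinase that starts the noncanonical NF-kB pathway. WT cells were gated as Thy1.1+ CD4+ GFP- and NIKtg cells as Thy1.1- CD4+ GFP+. Treg were RFP+ and Tconv RFP-, where RFP reports Foxp3, the transcription factor that defines Treg. Treg and Tconv of each genotype were represented by 2 arrays. Cells of all 4 groups carried the Foxp3 reporter and matured in irradiated hosts. NIKtg and WT cells also differed in Cre, GFP and the Thy1 allele, which cannot be told apart from the transgene here. The labels give no ages. Whether the replicates are separate animals is not stated either, so a p-value reflects the spread among these arrays alone, and that spread may be technical.

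The proteins of Tmem176a and Tmem176b cross the membrane 4 times and are related to the MS4A family. They form cation channels of endosomal and lysosomal membranes, and in immune cells they are known from dendritic cells and from Th17 cells. Plac8, also called onzin, is a small cysteine-rich protein first found in placenta and expressed by many leukocytes. No protein sequences were used here.

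In GRCm38.p6, the RefSeq annotation places Tmem176a at chr6:48841483-48845364 on the plus strand, inside the span of Tmem176b on the minus strand (chr6:48833811-48845948). Plac8 lies on the minus strand at chr5:100551589-100572253. All 3 genes had entries in the RefSeq table of promoter windows, which run from 250 bases before to 50 bases after an annotated start. For Tmem176a the table holds 2 windows, for Tmem176b 3 and for Plac8 2, and the most upstream of those is shown for each gene. The printed Tmem176a and Tmem176b starts are 109 bases apart and the genes run away from each other there, so that 208 bases of these windows are the same DNA read on opposite strands. The other Tmem176b starts in the table lie 346 and 495 bases from that Tmem176a start, and the annotated span of Tmem176b reaches further upstream than any of these windows. The windows are shown because the pair moved together on the arrays, and capitals mark matches to the motifs described below them. Tmem176a is chr6:48841233-48841532 on the plus strand, Tmem176b is chr6:48841325-48841624 on the minus strand and Plac8 is chr5:100572156-100572455 on the minus strand.
Tmem176a: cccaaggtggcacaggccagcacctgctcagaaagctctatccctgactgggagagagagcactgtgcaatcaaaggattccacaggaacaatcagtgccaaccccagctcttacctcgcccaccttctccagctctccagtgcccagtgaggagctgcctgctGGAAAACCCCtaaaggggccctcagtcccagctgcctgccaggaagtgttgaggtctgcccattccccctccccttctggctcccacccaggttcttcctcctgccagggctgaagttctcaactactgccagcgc
Tmem176b: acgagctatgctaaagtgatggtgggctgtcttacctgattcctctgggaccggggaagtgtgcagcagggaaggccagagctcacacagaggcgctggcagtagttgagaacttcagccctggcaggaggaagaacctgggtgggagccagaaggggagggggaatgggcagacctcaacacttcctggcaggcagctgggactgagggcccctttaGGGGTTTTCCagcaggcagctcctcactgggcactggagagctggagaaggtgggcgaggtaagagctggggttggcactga
Plac8: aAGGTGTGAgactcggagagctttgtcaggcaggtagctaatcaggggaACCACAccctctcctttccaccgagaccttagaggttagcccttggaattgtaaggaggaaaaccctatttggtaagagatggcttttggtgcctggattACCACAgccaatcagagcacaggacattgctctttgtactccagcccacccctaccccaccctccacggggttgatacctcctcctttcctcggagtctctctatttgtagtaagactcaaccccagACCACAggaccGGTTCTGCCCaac

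A search of both strands with the kB motif that NF-kB dimers bind (GGG, any 5 bases, then CC) found 1 match in each printed window. In Tmem176a it is bases 165 to 174 (GGAAAACCCC), which begin at -86 from the annotated start, and in Tmem176b the same DNA is bases 219 to 228 (GGGGTTTTCC), beginning at -32. In Plac8 the match (GGTTCTGCCC) is bases 288 to 297, after the start. A pattern this loose is common, and 50.8% of the 32851 windows in the table hold it. The Plac8 window also holds the T-box motif AGGTGTGA, found in 1.28% of all windows, and 3 copies of the RUNX motif TGTGGT (read as ACCACA on the printed strand), which 16.8% of windows hold. No printed window holds the AP-1 motif TGANTCA (7.81% of windows). No match overlaps another. G and C make up 59.7% and 60.3% of the Tmem176a and Tmem176b windows and 52.7% of the Plac8 window, against a median of 52.7% over all windows. A match of letters describes the sequence and says nothing of what binds there.

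An array detected from 9826 to 10794 probes (detection p under 0.01). Pearson r across genes was 0.9889 to 0.9942 for pairs within a group and 0.9231 to 0.9731 for pairs across groups. Foxp3 means of 13.52 and 13.27 (log2 intensity) in WT and NIKtg Treg against 8.43 and 6.54 in WT and NIKtg Tconv fitted the sort. All 6 T cell markers on the array were detected on every array. Map3k14, the gene of the transgene, was not raised in the libraries labelled NIKtg. The Treg difference was 0.09 (limma adjusted p = 0.579) and the Tconv difference -0.52 (adjusted p = 0.0102), a call lost without WT Tconv 1 (adjusted p = 0.0603), without NIKtg Tconv 1 (adjusted p = 0.0583) and with median centring (adjusted p = 0.231). Where its 1 probe lies in the transcript is unknown here, so this probe does not check the transgene. Nfkb2, the gene of the p100 precursor whose processing NIK triggers, rose in both subsets, by 1.02 (Treg, adjusted p = 0.00198) and 1.46 (Tconv, adjusted p = 0.000291).

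Tmem176a was read by 2 probes. One was above background on all 8 arrays. Its log2 normalized intensities were 6.09 and 6.17 on the WT Treg arrays, 8.92 and 8.94 with NIKtg, 7.51 and 8.51 on the WT Tconv arrays, and 5.85 and 5.74 with NIKtg. NIKtg Treg and WT Tconv were the high groups, WT Treg and NIKtg Tconv were the low groups, and no groups overlapped. Between genotypes alone, arrays lay apart in these directions in both subsets for 22.1% of all genes. In bulk samples such as these, fewer cells of a type and less RNA per cell cannot be told apart. The other Tmem176a probe was not above background on any of the 8 arrays, with detection p between 0.0602 and 0.853 and log2 values between 4.46 and 5.18, so it gave no second reading.

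Tmem176b, the partner channel gene, was read by 1 probe that was detected on all 8 arrays. Its log2 intensities were 7.18 and 6.87 for WT Treg, 10.26 and 10.19 for NIKtg Treg, 8.60 and 9.72 for WT Tconv, and 6.32 and 6.76 for NIKtg Tconv. The order of groups was that of Tmem176a, again with no overlap. Plac8 was also read by 1 probe, detected on all 8 arrays. Its log2 intensities were 7.96 and 7.89 for WT Treg, 10.89 and 10.50 for NIKtg Treg, 9.16 and 10.54 for WT Tconv, and 6.62 and 6.82 for NIKtg Tconv. Here NIKtg Treg and WT Tconv overlapped by 0.04, since WT Tconv 2 lay above NIKtg Treg 2, and all other groups were apart.

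**Figure D1:**
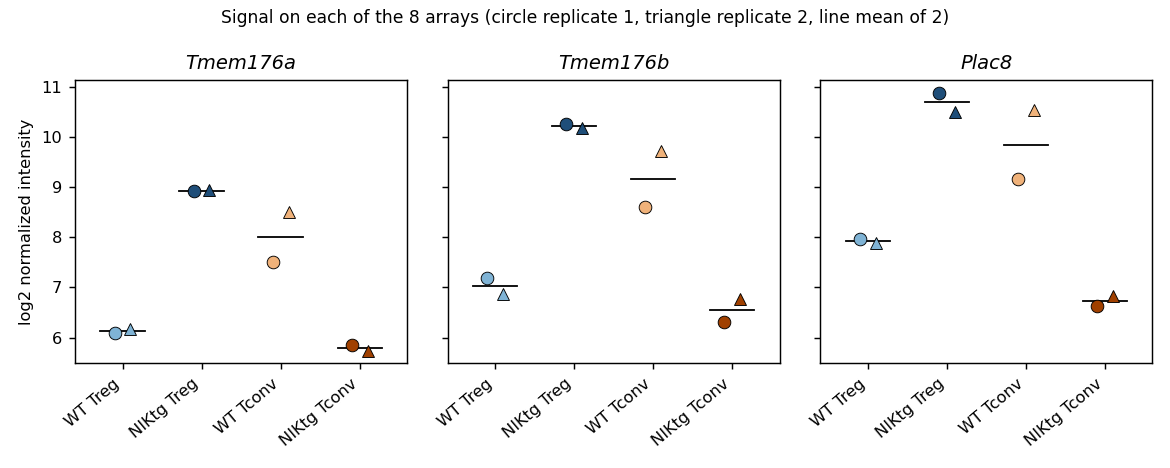
Log2 normalized intensity (y axis) of Tmem176a, Tmem176b and Plac8 in each of the 4 groups (x axis), with a circle for replicate 1, a triangle for replicate 2 and a line at the mean of 2. In each gene the mean of NIKtg Treg is highest and that of NIKtg Tconv lowest, and the 2 WT Tconv arrays lie 1.00, 1.12 and 1.38 apart.

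The 3 genes had the same order of group means, from NIKtg Treg over WT Tconv and WT Treg to NIKtg Tconv. Tmem176a means were 8.93 ± 0.01, 8.01 ± 0.71, 6.13 ± 0.06 and 5.80 ± 0.08 (SD, n = 2). Tmem176b means were 10.22 ± 0.04, 9.16 ± 0.79, 7.03 ± 0.22 and 6.54 ± 0.31, and Plac8 means were 10.69 ± 0.27, 9.85 ± 0.97, 7.93 ± 0.05 and 6.72 ± 0.15. The step between NIKtg Treg and WT Tconv (0.92, 1.06 and 0.84) was smaller than the distance between the 2 WT Tconv arrays. The arrays of these groups still lay apart by 0.41 for Tmem176a and 0.47 for Tmem176b, and overlapped for Plac8. Whether these groups differ was not tested. The step from WT Tconv to WT Treg (1.88, 2.14 and 1.92) was larger than the distance between the WT Tconv arrays in each gene. WT Treg stood 0.33 above NIKtg Tconv for Tmem176a, 0.48 for Tmem176b and 1.21 for Plac8. For Tmem176b this was close to the 0.44 between the NIKtg Tconv arrays.

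On the linear scale of the authors' normalized table, which carries no background correction, mean Tmem176a signal in Treg was 159.3 (WT) and 588.9 (NIKtg), and in Tconv 369.5 (WT) and 144 (NIKtg). The ratio of these means was 3.7 for NIKtg over WT in Treg and 2.57 for WT over NIKtg in Tconv. For Tmem176b the same ratios were 5.89 and 3.9, and for Plac8 they were 5.31 and 5.83. The Tconv ratios depended on which WT array was used. With WT Tconv 1 or WT Tconv 2 alone over the NIKtg mean they were 1.92 or 3.21 for Tmem176a, 2.64 or 5.17 for Tmem176b and 3.45 or 8.21 for Plac8.

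After background correction, the fitted difference between NIKtg and WT Treg was 2.80 (log2, SE 0.28) for Tmem176a, 3.20 (SE 0.33) for Tmem176b and 2.76 (SE 0.38) for Plac8. In Tconv it was -2.22 (SE 0.28), -2.62 (SE 0.33) and -3.13 (SE 0.38). These SEs come from a spread shared by all groups, so they are the same in both subsets. The WT Tconv arrays lay furthest apart, so the SEs may be too small for Tconv and too large for Treg. In Treg 10.4% of all genes were called higher in NIKtg cells and 9.45% lower, and in Tconv 12.9% were called higher and 17.2% lower. The difference between these effects was called in 39.2% of genes. Both arrays of one genotype lay above both of the other, in the direction of these genes and in both subsets, for 1755 genes (22.1%). The Treg effect minus the Tconv effect was 5.02 (SE 0.39) for Tmem176a, 5.82 (SE 0.47) for Tmem176b and 5.90 (SE 0.54) for Plac8. By size these ranked 8, 3 and 1 among 7926 genes, which follows from how they were chosen. With any single array left out, the Treg difference stayed between 2.77 and 2.86, 3.06 and 3.36, and 2.56 and 2.95, while the Tconv difference moved more. Without WT Tconv 1 the Tconv difference was -2.71, -3.17 and -3.81, and without WT Tconv 2 it was -1.7, -2.05 and -2.44. Background correction widened the differences, most for Tmem176a. Its values without correction were 1.89 and -1.31 for Tmem176a, against 2.80 and -2.22 with it.

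The opposite genotype effects meant that the subset difference turned with genotype. In WT cells Treg lay below Tconv by a difference of -1.88 for Tmem176a, -2.14 for Tmem176b and -1.92 for Plac8, and in NIKtg cells Treg lay above Tconv by 3.13, 3.68 and 3.97. Averaged over both genotypes, Treg exceeded Tconv by 0.63 (SE 0.19, limma adjusted p = 0.049) for Tmem176a, 0.77 (SE 0.24, adjusted p = 0.0459) for Tmem176b and 1.03 (SE 0.27, adjusted p = 0.0278) for Plac8, with 4 Treg against 4 Tconv arrays. In this contrast 14.3% of all genes were called higher in Treg and 13.1% lower, so that 27.4% were called at all. The 3 calls lay close to the threshold and did not hold throughout. They were lost without any 1 of the NIKtg Tconv or WT Treg arrays, or without NIKtg Treg 1 (adjusted p from 0.0659 to 0.142 over these), and those of Tmem176a and Tmem176b also without NIKtg Treg 2 (adjusted p = 0.0853 and 0.0772). Leaving out either WT Tconv array kept all 3 calls, with values from 0.38 to 0.87 for Tmem176a, 0.49 to 1.05 for Tmem176b and 0.68 to 1.37 for Plac8.

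The WT Tconv arrays stood apart from each other in all 3 genes. WT Tconv 2 was higher than WT Tconv 1 by 1.00 for Tmem176a, 1.12 for Tmem176b and 1.38 for Plac8, which is 2-, 2.17- and 2.6-fold. A distance of this size between these arrays was found in 1.01%, 0.757% and 0.227% of all genes. On the same array, 16 of 18 tested Th1 and cytotoxic effector genes were higher than on WT Tconv 1, with a median distance of 0.65 against -0.02 over all genes. The summed linear signal of 5 NK cell markers went from 1187 on WT Tconv 1 to 2340 on WT Tconv 2. The part of these differences in the results for the 3 genes was not tested.

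Cells of other kinds that could carry these RNAs were looked for through their markers, and not every list scored is given here. None of 8 conventional dendritic cell markers was detected on any array. Of 7 plasmacytoid dendritic cell markers, 4 or 5 were detected per array. Their summed signal was 1368 to 1456 for WT Treg and 1458 to 1581 for NIKtg Treg. In Tconv it was 898.8 to 1074 (WT) and 1152 to 1253 (NIKtg). Siglech had the group order of the 3 genes, with 0.30 in Treg (limma adjusted p = 0.195) and -0.53 in Tconv (adjusted p = 0.0358). Irf8 and Cox6a2, of the same list, rose in NIKtg Tconv (0.74, adjusted p = 0.0101, and at least 1.39-fold). Of 8 monocyte and macrophage markers, 2 to 5 were detected per array, and Cd14, Fcgr1 and Fcgr3 were detected on none. The summed signal of the 8 was 3817 to 4070 for WT Treg and 4660 to 5908 for NIKtg Treg. In Tconv it was 2432 to 2571 (WT) and 1947 to 2608 (NIKtg). Ctss was the brightest of those tested, with means of 11.71 in WT and 12.25 in NIKtg Treg. Ctss (0.53, limma adjusted p = 0.0839) and Lyz2 (0.59, 0.161) were not called in Treg. Fcer1g was -1.77 there (adjusted p = 0.0039), and Adgre1 and Tyrobp were at least 1.95- and 1.06-fold lower in NIKtg Treg. Adgre1, Fcer1g and Tyrobp were also called lower in NIKtg Tconv. The summed NK cell markers were 207.3 to 218.2 for WT Treg, 674.2 to 721.2 for NIKtg Treg, 1187 to 2340 for WT Tconv and 5911 to 6836 for NIKtg Tconv. That sum includes Eomes, which CD4 T cells can also express and whose mean log2 intensity was 12.50 in NIKtg Tconv. Without Eomes the sum was 139.6 and 153.6 for WT Treg, 114.5 and 144 for NIKtg Treg, 1038 and 2246 for WT Tconv and 587.1 and 575.7 for NIKtg Tconv. Ncr1, a defining NK cell gene, was detected on no array. Klrb1c, which encodes the NK1.1 antigen, was detected on the 2 WT Tconv arrays alone and was at least 6.33-fold lower in NIKtg Tconv (limma adjusted p = 0.000565). Klrd1, which encodes CD94, was -1.23 in Tconv (adjusted p = 0.049). Of 2 CD8 T cell markers, Cd8b1 was detected on every array and Cd8a on none. Their summed signal was 809.7 to 846.2 for WT Treg, 925.9 to 1033 for NIKtg Treg, 1100 to 1395 for WT Tconv and 473.7 to 600.5 for NIKtg Tconv, the lowest group as in the 3 genes. Cd8b1 was -1.25 in Tconv (adjusted p = 0.00174) and 0.24 in Treg (adjusted p = 0.325). The summed Treg markers were 30090 to 32350 for WT Treg and 19360 to 22690 for NIKtg Treg. In Tconv the sum was 2801 to 3011 (WT) and 2467 to 2602 (NIKtg). Foxp3 (-1.89, adjusted p = 0.0054), Il2ra (-1.89, 0.00755), Izumo1r (-1.69, 0.00322) and Ikzf2 (-0.64, 0.0322) were called lower in NIKtg Tconv. Ctla4 (0.26, 0.221) and Tnfrsf18 (0.12, 0.645) were not called there. The part of all these markers in the differences was not tested.

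Opposite genotype effects were not rare on these arrays. Of 7926 genes, 638 (8.05%) were called in both subsets with opposite signs, of which 331 (4.18%) rose in Treg and fell in Tconv as the 3 genes did, and 307 (3.87%) did the reverse. In the same direction in both subsets, 157 genes (1.98%) were called. An effect of at least 4-fold in each subset, up in Treg and down in Tconv, was found for 5 genes (0.0631%). These were Actn2, Tmem108 and the 3 genes, which had been chosen on these values. Without background correction and with the deposited normalized values Plac8 alone met this criterion, and without WT Tconv 2 Tmem176a did not meet it. Over the other alternatives 4 to 6 genes did, the 3 genes among them. Without WT Tconv 1 the count with opposite signs was 345 and without WT Treg 1 it was 201, and over all single arrays left out it ranged from 201 to 672.

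**Figure D2:**
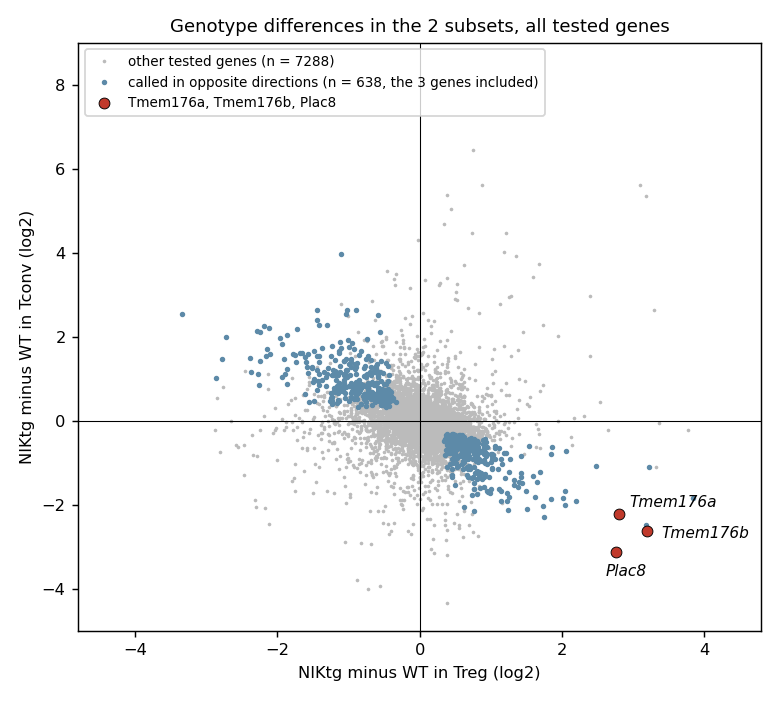
NIKtg minus WT in Treg (x axis, log2) against NIKtg minus WT in Tconv (y axis, log2) for all 7926 tested genes, with the 638 genes called in opposite directions in blue and Tmem176a, Tmem176b and Plac8 in red. The 3 genes lie at the far lower right, above 2.7 in Treg and below -2.2 in Tconv.

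Ranked by the difference of the effects, 10 genes led the 638, and the 3 genes were among them. The others were picked on these effects too, so their adjusted p-values only describe them. Actn2, the sarcomeric alpha-actinin that anchors actin in muscle, moved as they did, with 3.18 (SE 0.22) in Treg and -2.47 (SE 0.22) in Tconv (limma adjusted p = 0.000548 and 0.00049). Myh7, a cardiac myosin heavy chain, was not above background in WT Treg or NIKtg Tconv. It was at least 7.64-fold higher in NIKtg than in WT Treg and at least 2.11-fold lower in NIKtg than in WT Tconv. Tmem108, a transmembrane protein outside the first 10, gave 2.05 (adjusted p = 0.0135) and -2.01 (adjusted p = 0.00883), a call lost in Treg without WT Treg 2 (adjusted p = 0.0525) and in Tconv without WT Tconv 1 (0.0539) or NIKtg Tconv 1 (0.0651).

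The other 5 of the first 10 moved the opposite way. Klrg1, an inhibitory receptor of differentiated T and NK cells, was -3.34 in Treg (adjusted p = 0.0168) and 2.53 in Tconv (adjusted p = 0.0296). Its call was lost in Treg without WT Treg 1, WT Treg 2 or NIKtg Treg 1 (adjusted p 0.0569, 0.0931 and 0.0878) and in Tconv without WT Tconv 1 or either NIKtg Tconv array (adjusted p 0.129, 0.148 and 0.082). It was also lost with trend and robust variances (adjusted p 0.0664 in Treg and 0.105 in Tconv) and, in Tconv, with no detection filter (0.0544). Cst7, which encodes the cysteine protease inhibitor cystatin F, fell by 2.19 in Treg (adjusted p = 0.00125) and rose by 2.25 in Tconv (adjusted p = 0.000507). Il10, which encodes the anti-inflammatory cytokine, was at least 2.66-fold lower in NIKtg Treg and rose by 2.00 in Tconv (adjusted p = 0.00436), where 1 of 2 WT arrays detected it. Gdi2, a regulator of Rab GTPases, was at least 2.73-fold lower in NIKtg Treg and rose by 2.13 in Tconv (adjusted p = 0.000565). The tetraspanin gene Tspan3 rose by 3.98 in Tconv (adjusted p = 5.82e-05) and was -1.11 in Treg (adjusted p = 0.0127), a call lost without either WT Treg array or without NIKtg Treg 1 (0.0734, 0.0594 and 0.0556). A dimmer Tspan3 probe read 0.15 in Treg and 2.53 in Tconv.

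Genes with the most similar profile were named by Pearson r over the 8 arrays, among 1564 genes whose group means span at least 1 log2 unit. The arrays, the normalization and the groups are shared by all genes, so r is a description only. The genotype differences of genes named in this way follow in part from that choice. Tmem176a and Tmem176b correlated best with each other, at 0.993. Plac8 correlated at 0.983 with Tmem176b and at 0.978 with Tmem176a. Cited4, a transcriptional coactivator, was at 0.992 with Tmem176a, 0.981 with Tmem176b and 0.968 with Plac8. Actn2 was at 0.976, 0.984 and 0.966. The first 5 also held Ltb4r1, the leukotriene B4 receptor, for Tmem176a (0.977), Jaml, a junctional adhesion molecule of leukocytes, for Tmem176b (0.977), and Dok3, an adaptor of immune receptor signalling, for Plac8 (0.964).

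**Figure D3:**
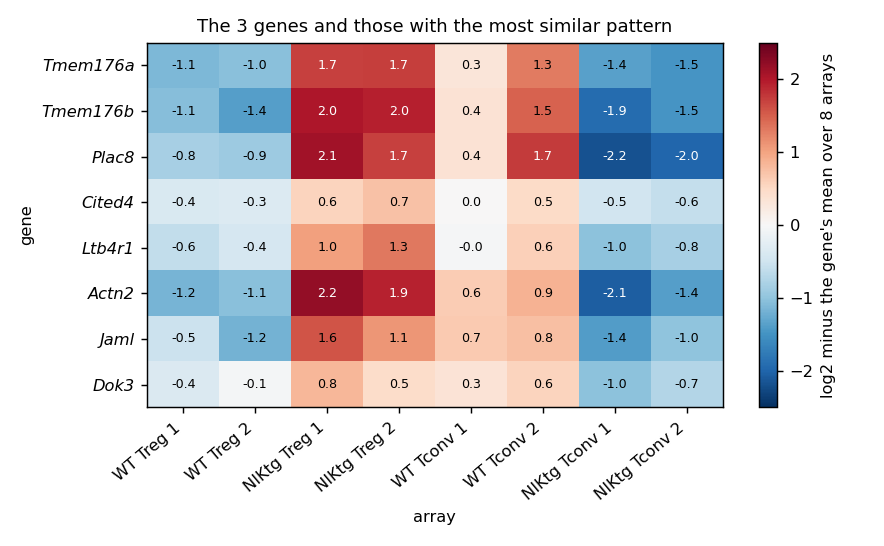
Log2 intensity minus the gene's mean over 8 arrays (colour and printed value) for the 3 genes and the 5 genes most like them (rows) on each array (columns). Red is above and blue is below the gene's mean, and all 8 genes are high in NIKtg Treg and low in NIKtg Tconv.

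Of these, Jaml was 2.20 in Treg (adjusted p = 0.00209), where 1 of 2 WT arrays detected it, and at least 2.9-fold lower in NIKtg Tconv, where it was below detection. Ltb4r1 was at least 2.36-fold higher in NIKtg Treg and at least 1.32-fold lower in NIKtg Tconv. Cited4 was detected on 3 of the 8 arrays and was at least 1.23-fold higher in NIKtg Treg. Dok3 was -1.32 in Tconv (adjusted p = 0.00216) and 0.84 in Treg (adjusted p = 0.0192), a call lost without WT Treg 1, without NIKtg Treg 1 or with median centring (adjusted p 0.114, 0.0995 and 0.322). The distance of WT Tconv 2 above WT Tconv 1 was smaller in these 5 genes (0.10 to 0.63) than in the 3 genes. The largest of these distances, in Ltb4r1 (0.63) and Cited4 (0.47), came from genes detected on 4 and 3 arrays. Signal that close to background limits the comparison.

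The chromosomal neighbours that were tested did not share the pattern of opposite calls in the 2 subsets. Of 10 annotated protein-coding neighbours of the Tmem176 pair, 9 were on the array and 5 were tested, all GTPases of the immunity-associated GIMAP family. All of these lie on the same side of the pair, and no neighbour on its other side was tested. In Treg none of the 5 was called, with differences from -0.20 to 0.25, and in Tconv 2 were called higher, with a range from 0.01 to 0.92. The 2 were Gimap7, at 0.92 (adjusted p = 0.000914), and Gimap3, the adjacent annotated gene, at 0.51 (adjusted p = 0.00882). Over the whole GIMAP cluster, 8 of 8 were tested, none was called in Treg and the same 2 were called higher in Tconv. Of the 10 neighbours of Plac8, 9 were on the array and 7 were tested. None was called in Treg (-0.58 to 0.21) and 1 was called lower in Tconv (-0.43 to 0.01). It was Lin54, a subunit of the DREAM complex that controls cell cycle genes, at -0.34 (adjusted p = 0.0328). That call was lost without either WT Tconv array, either NIKtg Tconv array or either WT Treg array, with median centring (-0.17, adjusted p = 0.627) or with no detection filter (adjusted p = 0.0633). The largest adjusted p among the arrays left out was 0.162. A dimmer probe of Cops4, next to Plac8, read -1.78 in Treg and 1.47 in Tconv, against 0.14 and 0.01 for the brighter probe. None of the tested neighbours was called in opposite directions. The difference of effects was called for Lin54 (0.55, adjusted p = 0.0168), with the sign of Plac8. With median centring it was 0.03 (adjusted p = 0.957). It was also called for Gimap3 (-0.71, adjusted p = 0.00753) and Gimap7 (-0.68, adjusted p = 0.00958), against the sign of the Tmem176 genes. Of all genes, 19.9% were called in Treg, 30.1% in Tconv and 39.2% in the difference.

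**Figure D4:**
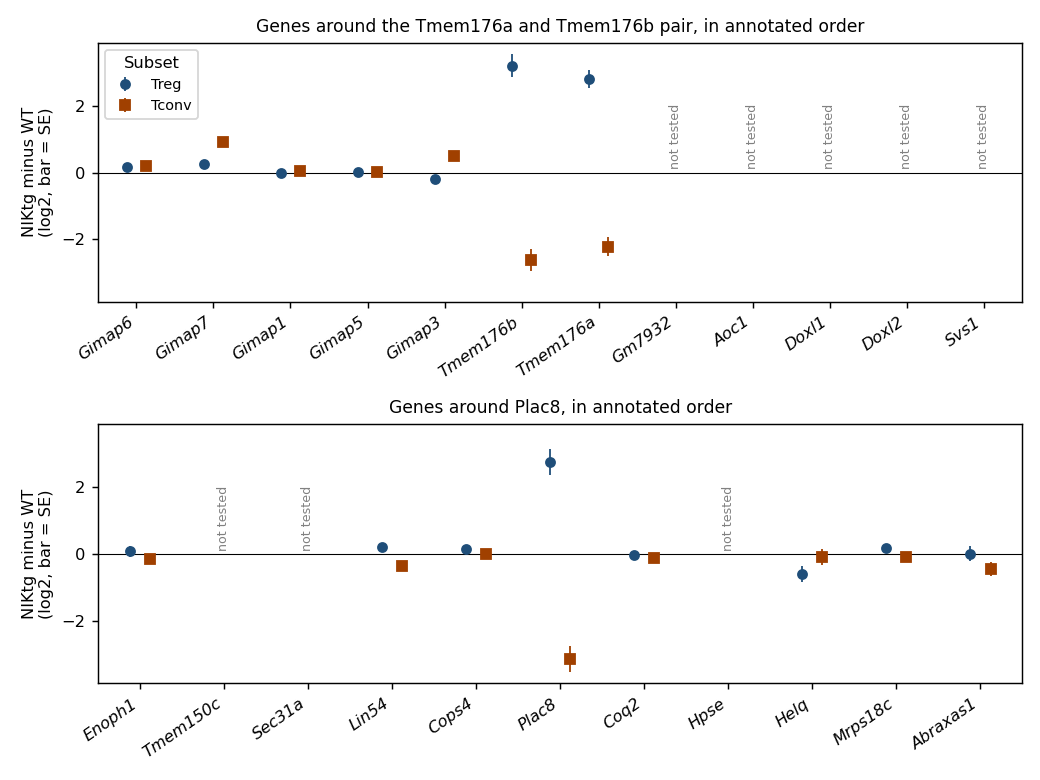
NIKtg minus WT (log2, bars are SE) in Treg (circles) and Tconv (squares) for genes around the Tmem176 pair (top) and around Plac8 (bottom), in annotated order along the x axis. The 3 genes stand out from tested neighbours that lie between -0.58 and 0.25 in Treg.

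Relatives and pathway genes were taken from lists, described here by counts beside the 19.9% and 30.1% above. Medians over all genes were 0.06 in Treg and -0.08 in Tconv. Of 14 MS4A relatives on the array, 4 were tested, and none was called in Treg. Ms4a6d rose by 1.29 in Tconv (adjusted p = 0.00456), against the direction of both Tmem176 genes, and was -0.70 in Treg (adjusted p = 0.0583). In Treg it was called lower under 7 of 16 alternatives, among them median centring (-1.06, adjusted p = 0.00356), no background correction (-0.60, adjusted p = 0.0148) and either WT Tconv array left out (adjusted p = 0.0269 and 0.0259). Of the PLAC8 domain relatives, 1 was on the array and none passed the detection filter.

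Of 23 Th17-related genes on the array, 15 were tested. In Treg 3 rose and 6 fell (median -0.36), and in Tconv 2 rose and 5 fell (median -0.26). In 5 genes the effects were opposite. Ccr6, the chemokine receptor of Th17 cells, moved like the 3 genes, with 1.43 in Treg (adjusted p = 0.00779) and -1.35 in Tconv (adjusted p = 0.00541), as did Ltb4r1. Nr1d1, a nuclear receptor of the circadian clock named after its values were seen, gave 0.95 (adjusted p = 0.02) in Treg and was at least 1.62-fold lower in NIKtg Tconv. Its Treg call was lost without WT Treg 1, WT Treg 2 or NIKtg Treg 1 (adjusted p 0.115, 0.0631 and 0.0858) or with median centring (0.49, adjusted p = 0.133), and its Tconv call without NIKtg Tconv 1 (0.0818). Batf, an AP-1 factor needed for Th17 differentiation, moved the other way, at -1.93 (adjusted p = 0.00122) and 1.83 (adjusted p = 0.000565). Hif1a, the oxygen-sensing factor, gave -1.89 (adjusted p = 0.00176) and 1.12 (adjusted p = 0.00638), the second lost without NIKtg Tconv 1 (adjusted p = 0.0543). Il17a, Il17f, Il22 and Il23r did not pass the detection filter.

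Inflammasome genes were taken because Tmem176b has been linked to inflammasome control. Of 11 on the array 7 were tested, with 2 called lower in Treg, and with 3 called higher and 1 lower in Tconv. Casp1, the protease that matures IL-1b and IL-18, rose by 1.39 in Tconv (adjusted p = 0.000674) and was -0.17 in Treg (adjusted p = 0.409). Il18 was at least 2.09-fold lower in NIKtg Treg and rose by 1.11 in Tconv (adjusted p = 0.000565), where 1 of 2 WT arrays detected it. Casp4, the cytosolic sensor of bacterial lipopolysaccharide, rose by 1.37 in Tconv (adjusted p = 0.000557). In Treg it was -0.47 (adjusted p = 0.0412), a call lost without any 1 of the 4 Treg or 2 NIKtg Tconv arrays (adjusted p up to 0.204) or with no detection filter (0.0686). Txnip, a thioredoxin inhibitor, was -0.78 in Tconv (adjusted p = 0.00738, and 0.0554 without NIKtg Tconv 1). Nlrp3 and Il1b did not pass the detection filter.

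Th1 and cytotoxic effector genes, the list of the programme in which Plac8 has been described, ran largely against the 3 genes. Of 23 on the array 18 were tested. In Tconv 10 rose and 3 fell (median 1.01), and in Treg 1 rose and 4 fell (median -0.30). The difference of effects was called lower in 11 and higher in 3, against 16.1% and 23% of all genes. Eomes, a T-box factor of effector and memory lymphocytes, rose in both subsets, by 3.10 (adjusted p = 0.000501) and 5.61 (adjusted p = 1.48e-05). Cxcr3, a Th1 chemokine receptor, fell by 2.78 in Treg (adjusted p = 0.000804) and rose by 1.47 in Tconv (adjusted p = 0.00276). Ccl4, a chemokine that attracts inflammatory cells, rose by 4.68 in Tconv (adjusted p = 6.18e-05), and Gzmk, granzyme K, was at least 80.8-fold higher in NIKtg Tconv. Ifng fell by 2.85 in Treg (adjusted p = 0.00347), where 1 of 2 NIKtg arrays detected it. Ly6c1, a surface antigen of memory T cells, moved with the 3 genes in Tconv, at -2.66 (adjusted p = 0.000555), and gave 0.75 in Treg (adjusted p = 0.0734, and 0.0166 without background correction). Without WT Tconv 1, 8 of the 18 were called higher in Tconv and without WT Tconv 2, 11 were.

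**Figure D5:**
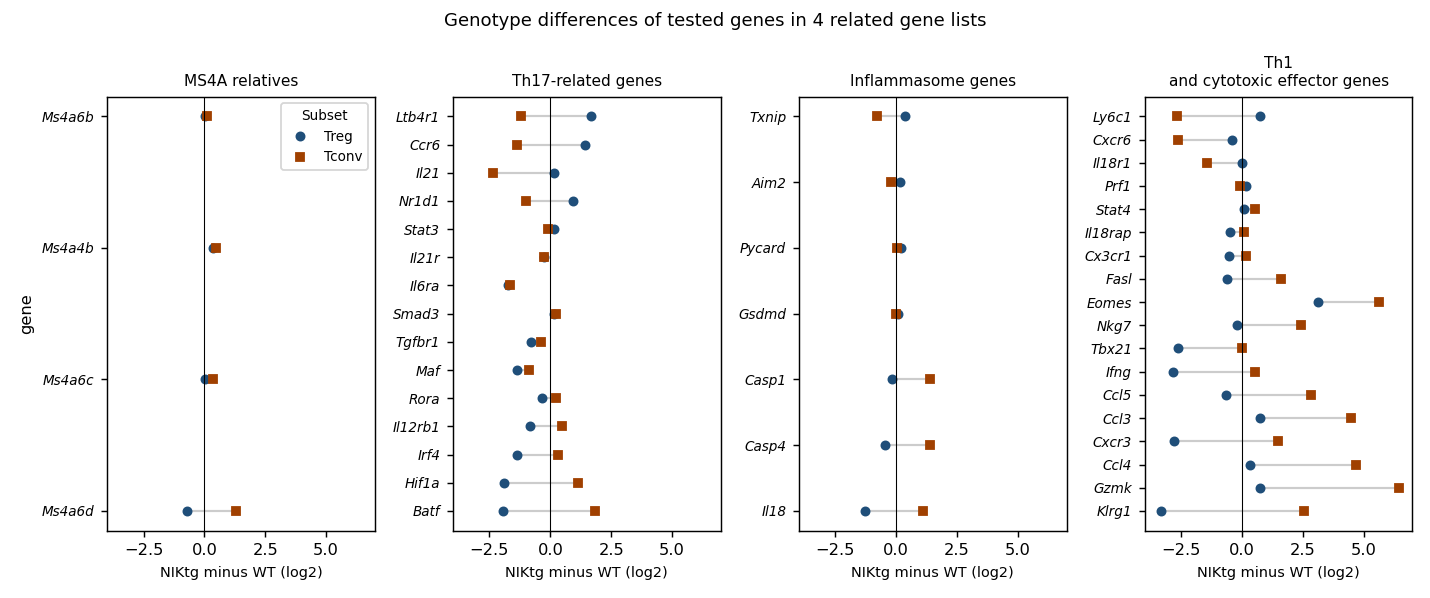
NIKtg minus WT (x axis, log2) in Treg (circles) and Tconv (squares) for each tested gene (rows) of 4 gene lists, joined by a line and ordered by the difference of the effects. Among the Th1 and cytotoxic effector genes most squares lie to the right of their circles, while Tmem176a, Tmem176b and Plac8, not shown, have them on the left.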

How the data were processed

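RNA of 8 samples was measured on one-colour Illumina arrays. The authors deposited unnormalized probe intensities, each with a detection p-value per the file headers, and a table of normalized intensities. GenomeStudio 2010.1 is named in the submitters' processing notes. The deposited table is linear, uncentred (array medians 118.6 to 118.8) and of unstated method, and it served as an alternative. Intensities were background-corrected with limma 3.58.1 in R 4.3.3 (nec, offset 16), then quantile normalized, and log2 values were taken. Background correction widens differences of dim genes. The 11526 probes that 2 or more arrays detected (p under 0.01) were named through the platform annotation (23978 of 25697 probes had 1 symbol and 1719 were not listed), and each gene was read from its brightest probe. All 8 arrays entered a linear model with 1 coefficient for each group (lmFit, eBayes, two-sided, 4 residual degrees of freedom), with Benjamini-Hochberg adjustment over 7926 genes and a threshold of 0.05. All adjusted p-values are limma's. The number of arrays limits the precision.

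The genes, lists and rules were chosen with earlier results of these data known. Named genes were the 3 genes, label checks, the 10 largest opposite effects, the 5 most correlated genes per gene, up to 4 called genes per list and contrast, and tested neighbours, and a subset is printed. "At least" folds are bounds for genes detected on neither array of the dimmer group, set against the lowest detected signal, and take no account of spread. The fitting step was tested on simulated data. Alternatives were 8 other settings and each of the 8 arrays left out.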

Additional observations from a re-analysis of the deposited data

Results flagged for a closer look

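The difference between the NIK effects (Treg minus Tconv, log2) is given here for the genes named above. For Tmem176a (5.02), Tmem176b (5.82) and Plac8 (5.90) both NIKtg arrays lay above both WT arrays in Treg and below them in Tconv. The same was true of 22.1% of all genes. For these 3 the difference was not tested because it chose the genes. Genes outside these 3 were named for large opposite effects or for correlation with the 3 genes. Their limma p-values are given only as a description of the difference. It was positive for Myh7 (5.67, adjusted p = 0.00022), Actn2 (5.65, adjusted p = 0.000182), Jaml (4.11, adjusted p = 0.000427), Ltb4r1 (2.90, adjusted p = 0.000731), Dok3 (2.16, adjusted p = 0.00117) and Cited4 (1.79, adjusted p = 0.00153). It was negative for Klrg1 (-5.87, adjusted p = 0.00377), Tspan3 (-5.09, adjusted p = 0.000182), Il10 (-4.74, adjusted p = 0.000671), Cst7 (-4.44, adjusted p = 0.00022) and Gdi2 (-4.43, adjusted p = 0.00022). Background is 39.2% of all genes called in this contrast. These are fitted values, and where an array group lies below detection they are not bounds.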

How the results depend on the processing

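Tmem176a, Tmem176b and Plac8 kept the signs of both NIK effects under all 16 alternatives. Without background correction and with the deposited normalized values, the difference of effects was 3.20, 4.45 and 4.81, the Tconv effect -1.31, -1.89 and -2.41, and the Treg effect 1.89 and 2.56 for the Tmem176 genes. With median centring the difference was 4.42, 5.20 and 5.31 and the Treg effect of Tmem176a 2.37. Over single arrays left out, the difference ranged from 4.49 to 5.51, 5.25 to 6.36 and 5.2 to 6.56, the Tconv effect from -2.71 to -1.7, -3.17 to -2.05 and -3.81 to -2.44, and the Treg effect from 2.77 to 2.86, 3.06 to 3.36 and 2.56 to 2.95. The averaged subset difference passed the threshold in 8, 7 and 10 of 16 alternatives, with left-out ranges of 0.38 to 0.87, 0.49 to 1.05 and 0.68 to 1.37. It did not pass with median centring (Tmem176a 0.39, Tmem176b 0.50), with no detection filter (0.63 and 0.77) or with trend and robust variances (Tmem176b 0.77, Plac8 1.03). The cause was not tested.

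Counts of called genes moved with the processing: 3538 in the averaged subset difference with median centring, and 418 with opposite effects with no detection filter, where more genes were tested. Over single arrays left out, counts were 201 to 672 (opposite effects), 469 to 1661 (Treg), 928 to 2527 (Tconv), 1982 to 3061 (difference) and 1450 to 2080 (averaged subset). Median centring moved the all-gene medians to -0.27 in Treg, 0.09 in Tconv and -0.38 for the difference, and the share of calls that were higher to 8.19%, 68% and 14.8%, from 52.4%, 42.9% and 58.8%, and to 14.3% from 52.1% for the averaged subset difference. It reversed Map3k14 (-0.26), Ccl4 (-0.03) and Lin54 (-0.15) in Treg, none of them called. Without NIKtg Treg 1, 40.1% of 584 Treg calls were higher. Of 34 named genes outside the 3, the 16 alternatives gave 1512 values on the same side of the threshold, 60 that lost it, 15 that gained it and 3 reversed.

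With the replicate block, the averaged subset difference was 0.63, 0.77 and 1.03 (adjusted p = 0.0476, 0.0448 and 0.0328), the NIK effects of the 3 genes were as without it, and 640 genes had opposite effects. Casp4 in Treg lost its call (adjusted p = 0.0538). Between groups, the deviations of arrays by replicate number correlated at -0.02 to 0.14. With so few arrays per group these values cannot decide whether replicate numbers pair samples, and the labels do not state it. The chip as a block was not run, because the headers name no chip. Signal over background limits the second Tmem176a probe.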
